A study of Drosophila melanogaster with 19 samples.

Results

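Depletion of the repressor E2F2 was examined in S2R+ cells, a Drosophila line of embryonic origin with features of blood cells, by setting the RNA library of cells given dsRNA against E2F2 beside those of cells given dsRNA against GFP, a sequence that fly cells do not carry. The comparison rests on 3 of the 19 samples of the series, namely 1 E2F2 RNAi library and 2 GFP control libraries, chosen by their labelled dsRNA target. All received dsRNA for 4 days at 25 °C, first at 30 μg/ml without serum and then at 10 μg/ml in medium with 10% serum, and RNA was selected with oligo-dT. Libraries of mip40, mip120 and mip130 RNAi cells, 2 each and treated in the same way, served as a second set to compare E2F2 RNAi with. Nothing in the labels states that libraries of a group came from independent cultures, and the p-values therefore reflect sample-to-sample spread that may be technical. E2F2 RNAi has no replicate at all, and what belongs to the RNAi and what belongs to that library cannot be told apart.

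E2F2 is the repressor of the fly's E2F family and binds DNA together with Dp. It is part of dREAM, a chromatin-bound assembly of RB-family proteins, E2F2, Dp, Myb and Myb-interacting proteins (Mip) that is known for keeping germline and other tissue-specific genes silent in cultured fly cells. The other fly E2F, named E2f in the deposited table, is known as an activator of genes for S phase and mitosis.

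Values are FPKM, read fragments normalized by transcript length and by library size, summed per gene over annotated transcripts and their new isoforms. They hold no read counts, so depth is unknown. FPKM of annotated transcripts summed to 688463 in the E2F2 library, against 607610 and 608207 in the GFP libraries. Over all transcripts the sum was 774009 in the E2F2 library, against 710985 and 640535 in the GFP libraries. The same unannotated transcript was the highest in each, with 9.20% of the sum in the E2F2 library and 12.8% and 3.67% in the GFP libraries. The E2F2 library had 9684 genes above 0, against 10040 and 10036 in the GFP libraries. Of 9 blood cell markers, srp, crq, Pvr, Pxn, BM-40-SPARC and the collagens vkg and Cg25C were above 5 FPKM in all 3 libraries, while Hml and nimC1 were below 1. Markers of other tissues (repo, Mhc, Lsp1alpha, Yp1, Mst87F, dj, alphaTry) were below 1 FPKM in these 3 libraries. The neuronal gene elav had 31.9 FPKM in the E2F2 library, against 26.2 and 32.7 FPKM in the GFP libraries. The germ cell markers vas and nos had 6.48 and 2.64 FPKM in the E2F2 library and were below 1 FPKM in the GFP libraries, as described below. The part of other cell types in the results was not tested. In RNA from whole cultures, fewer cells of a type and less RNA per cell cannot be told apart.

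The targeted transcript was depleted. E2f2, a gene with 1 listed transcript on the reverse strand of chromosome 2L starting at 21156232 in the table's coordinates (build not given in the sources used here), had 2.54 FPKM in the E2F2 library, against 25.8 and 27.9 FPKM in the GFP libraries. The E2F2 library thus held 9.45% of the control mean and lay below both controls and below all 6 mip libraries, which ranged from 23.3 to 32.1 FPKM. The difference on the log2(FPKM + 1) scale, on which all log2 differences here are given ± SE, was -2.98 ± 0.12 (limma, Benjamini-Hochberg adjusted p = 4.9e-05). Its neighbours did not pass the test. Mpp6, whose start lies 642 bp away on the opposite strand, had 20.2 FPKM in the E2F2 library, against 20.7 and 26.2 FPKM in the GFP libraries (limma adjusted p = 0.47). The next gene, del, had 3.16 FPKM in the E2F2 library, against 2.33 and 2.64 FPKM in the GFP libraries (limma adjusted p = 0.34).

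Among the 12 dREAM subunits and associated factors, E2f2 and mip130 fell, Rbf2 and Rpd3 rose, and 8 did not pass the test. Rbf2, the second RB-family protein of the fly, had 9.99 FPKM in the E2F2 library, against 5.69 and 4.79 FPKM in the GFP libraries (0.82 ± 0.14, limma adjusted p = 0.015). mip130, the Myb-interacting subunit, had 19.3 FPKM in the E2F2 library, against 27.7 and 29.8 FPKM in the GFP libraries (-0.55 ± 0.09, limma adjusted p = 0.014). In both cases the E2F2 value stood outside the control pair, but leaving out GFP replicate 2 ended the calls, with limma adjusted p of 0.058 for Rbf2 and 0.060 for mip130. Rpd3, the histone deacetylase, had 153 FPKM in the E2F2 library, against 115 and 114 FPKM in the GFP libraries (0.42 ± 0.08, limma adjusted p = 0.027). That call ended without GFP replicate 1, GFP replicate 2 or either mip120 library, with limma adjusted p up to 0.089, and under annotated-sum and quantile scaling. Dp, the DNA-binding partner of E2F2, had 198 FPKM in the E2F2 library, against 165 and 153 FPKM in the GFP libraries (limma adjusted p = 0.055). mip120 and lin-52 lay below the control pair without passing the test (limma adjusted p = 0.095 and 0.069), while Myb, Caf1 and l(3)mbt lay close to it. For mip40 the E2F2 library had 39.1 FPKM, against 34.0 and 31.1 FPKM in the GFP libraries (limma adjusted p = 0.22).

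**Figure D1:**
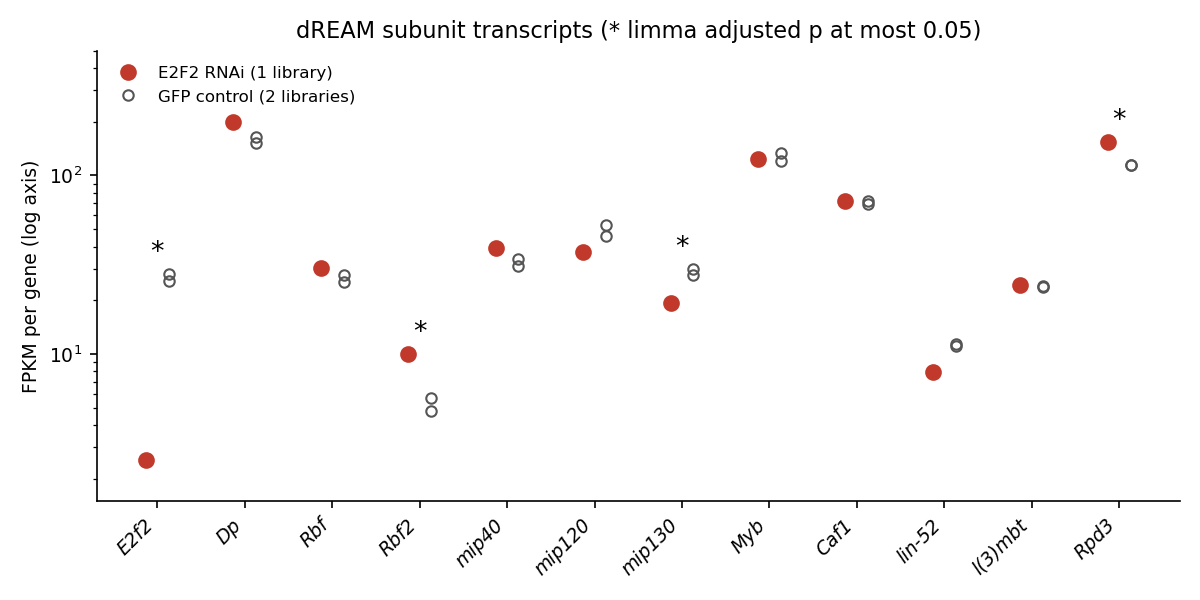
FPKM per gene on a log axis for the 12 dREAM subunits and associated factors; filled red points are the E2F2 RNAi library and open grey points the 2 GFP control libraries, with an asterisk where the limma adjusted p was at most 0.05. E2f2 shows the widest gap, at 2.54 FPKM in the E2F2 library against 25.8 and 27.9 FPKM in the GFP libraries.

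Across the transcriptome, more genes were higher than lower in E2F2 RNAi cells. Of 7835 genes tested, 727 (9.28%) were called higher and 213 (2.72%) lower at an adjusted p of 0.05 (limma, all 9 libraries in 1 model, so that the single E2F2 library was assumed to vary like the replicated groups). Of these, 131 rose and 36 fell by at least 1 on the log2 scale. By a rule with no test, 185 genes (2.36%) lay above both GFP libraries and at least 1 log2 unit above their mean. Likewise, 71 (0.906%) lay below both and at least 1 log2 unit below their mean. For comparison, the median gene differed by 0.11 log2 units between the GFP libraries and by 0.19 between E2F2 RNAi and the GFP mean. The called counts moved with the control and mip120 libraries, to 414 higher and 102 lower without GFP replicate 1, to 262 and 71 without GFP replicate 2, and to 420 or 423 higher and 126 lower without a mip120 library. The balance moved with the scaling. The share of higher calls was 77.3% as deposited, 62.2% under median-ratio scaling, 61.0% under quantile normalization and 41.2% under annotated-sum scaling, where 321 genes were higher and 459 lower and the median of all genes shifted to -0.08 from 0.08 (log2).

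**Figure D2:**
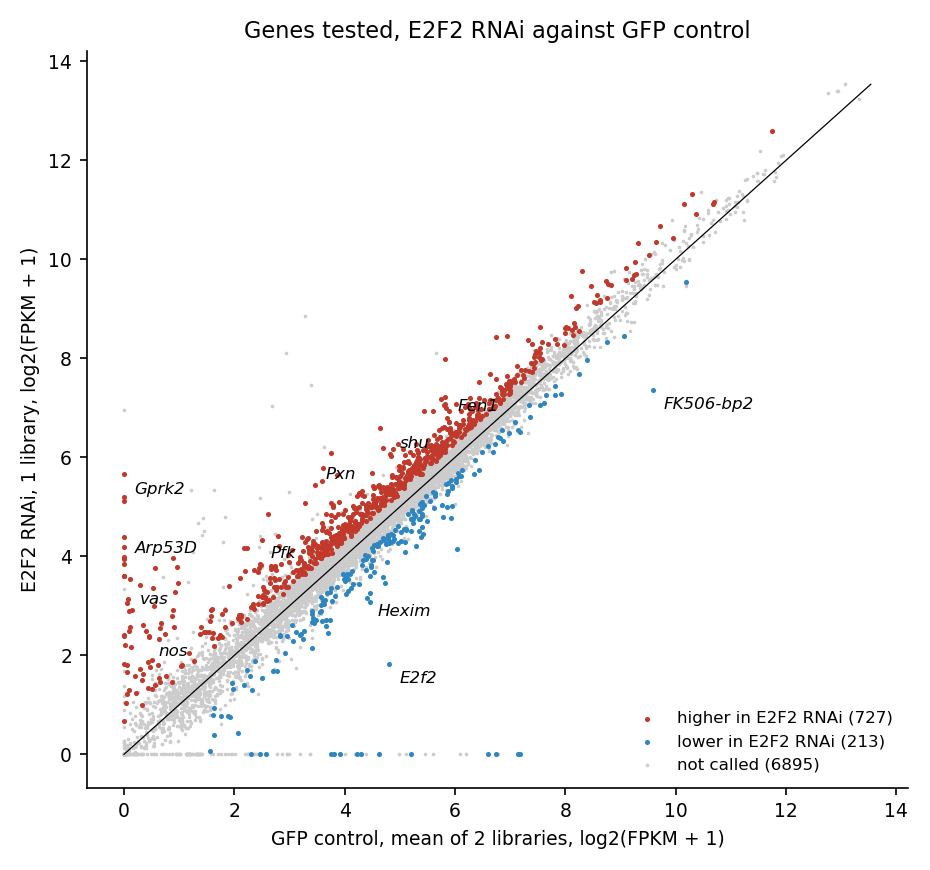
log2(FPKM + 1) of each tested gene in the E2F2 RNAi library (vertical) against the mean of the 2 GFP control libraries (horizontal), with the line of equality. Red points are the 727 genes called higher in E2F2 RNAi, blue points the 213 called lower, and grey points those not called; points along both axes are genes listed at 0 on the other side.

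Called genes were spread over the chromosome arms. The share of tested genes called higher ran from 8.46% on X to 9.82% on 2L, with 2 of 64 on chromosome 4. Genes in a head-to-head arrangement, with the outermost starts of a divergent pair on opposite strands not overlapping and at most 1000 bp apart, made up 49.0% of those called higher and 39.4% of those called lower, against 45.9% of all tested. Among the tested partners of the 15 genes with the largest called rise, CG30285 and CG3011 were called higher. Sod2, CG10672, CG5703, l(3)L1231, RpI135, cm, Ufd1-like and TfIIS were not called, where 9.28% of all genes tested were called higher. Arp53D rose and its partner Sod2, the mitochondrial superoxide dismutase, had 128 FPKM in the E2F2 library, against 142 and 153 FPKM in the GFP libraries (limma adjusted p = 0.33). CG3011, the partner of CG3726, had 47.2 FPKM in the E2F2 library, against 35.8 and 31.1 FPKM in the GFP libraries (0.49 ± 0.12, limma adjusted p = 0.047), a call that ended under each scaling and without either GFP library, a mip120 or a mip130 library (limma adjusted p up to 0.14). CG30285, whose start lies 391 bp from that of CG10307, was called as well. CG10307 had 9.71 FPKM in the E2F2 library, against 0.231 and 0.211 FPKM in the GFP libraries (3.13 ± 0.19, limma adjusted p = 0.00031), and CG30285 had 4.92 FPKM in the E2F2 library, against 0 and 0.161 FPKM in the GFP libraries (2.46 ± 0.18, limma adjusted p = 0.00078). In the mip libraries CG30285 was listed at 0 in both mip40 libraries and had 3.05 to 4.05 FPKM in the mip120 and mip130 libraries.

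The genes that rose most were near 0 in control cells. CG8316, named corolla in the reference table and a component of the synaptonemal complex that joins chromosomes in meiosis, had 12.6 FPKM in the E2F2 library, against 0.397 and 0.576 FPKM in the GFP libraries (3.20 ± 0.11, limma adjusted p = 4.1e-05). pyx, the heat-gated ion channel pyrexia, had 7.30 FPKM in the E2F2 library, against 0.0307 and 0.0565 FPKM in the GFP libraries (2.99 ± 0.14, limma adjusted p = 8.4e-05). vas, the germline RNA helicase Vasa, had 6.48 FPKM in the E2F2 library, against 0.114 and 0.0261 FPKM in the GFP libraries (2.81 ± 0.23, limma adjusted p = 0.0011). Each of these was below 1 FPKM in both controls, as were 57 of the genes called higher. CG4623, named Gdap1 in the reference table, had 10.6 FPKM in the E2F2 library, against 0.084 and 0.0769 FPKM in the GFP libraries (3.42 ± 0.16, limma adjusted p = 8.9e-05). CG42575, a phosphate transporter named NaPi-III there, had 12.8 FPKM in the E2F2 library, against 0.822 and 1.09 FPKM in the GFP libraries (2.82 ± 0.11, limma adjusted p = 4.1e-05). CG3505, CG4213 and CG15130 had 14.7, 7.76 and 6.52 FPKM in the E2F2 library and at most 0.977 FPKM in either GFP library, with differences of 3.09, 3.05 and 2.77. All 8 of these genes stayed called with any one library left out, while the call of CG3505 ended with annotated transcripts only. CG42308 had 9.29 FPKM in the E2F2 library, against 1.08 and 0.000906 FPKM in the GFP libraries, and its call (limma adjusted p = 0.028) ended without GFP replicate 2 (limma adjusted p = 0.089).

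Some genes called higher were listed at 0 in both GFP libraries, where an exact 0 can be a failed estimate and no fold is given. There were 14 of these, 5 of them small RNAs. Gprk2, a kinase of G protein-coupled receptors on chromosome 3R starting at 27230967, had 33.9 FPKM in the E2F2 library and was listed at 0 in both GFP libraries. Its neighbours CG11337, named PNPase in the reference table and an exoribonuclease, and Gcn2, a kinase of translation factor eIF2, had 11.1 and 14.8 FPKM in the E2F2 library and were likewise listed at 0 in both GFP libraries. CG11337 lies on the strand opposite to Gprk2 with annotated starts on both sides of that of Gprk2, and this pair is not counted as head-to-head above. These 3 adjacent genes shared their pattern across the series, since they were present in both mip40 libraries (8.64 to 33.1 FPKM) and listed at 0 in all mip120 and mip130 libraries. CG3726 on chromosome X followed the same pattern, with 20.1 FPKM in the E2F2 library, 18.3 and 19.1 FPKM in the mip40 libraries and a listed 0 in the other 6 libraries. So did rut, the adenylyl cyclase rutabaga, also on X, with 2.53 FPKM in the E2F2 library, 2.78 and 2.63 FPKM in the mip40 libraries and a listed 0 elsewhere. Whether these zeros are measurements or failed estimates was not tested.

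Genes high in the E2F2 library alone could not enter the test, since the filter asks for 1 FPKM in at least 2 of the 9 libraries. There were 53 genes with at least 1 FPKM in the E2F2 library and less than 1 FPKM in each of the 8 others, and 13 of these were listed at 0 in all 8. The examples that follow were chosen after their values were seen. Lasp, an actin-binding protein, had 151 FPKM in the E2F2 library, Eip63E, a cyclin-dependent kinase, had 60.1 FPKM, and mbl, the splicing factor muscleblind, had 42.0 FPKM. Nipped-A, a large scaffold of histone acetyltransferase complexes, had 58.4 FPKM in the E2F2 library, and Snap25, a protein of synaptic vesicle fusion, had 11.3 FPKM. All 5 were listed at 0 in both GFP libraries and all 6 mip libraries. Whether those zeros are failed estimates was not tested, and these genes are in none of the counts given with the filter.

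Arp53D, an actin-related protein known from the testis, showed another pattern. It had 14.4 FPKM in the E2F2 library and was listed at 0 in both GFP libraries (limma adjusted p = 4.1e-05). It was present in the mip120 and mip130 libraries (11.8 to 24.0 FPKM) and low in the mip40 libraries (0.256 and 0.120 FPKM). CG31373 had 4.23 FPKM in the E2F2 library, 2.65 to 5.81 FPKM in the mip120 and mip130 libraries, 0.165 and 0.263 FPKM in the mip40 libraries and a listed 0 in both GFP libraries (limma adjusted p = 0.0014). CG31373 overlaps antisense transcripts that moved with it, and without a stated strand setting their reads cannot be told apart.

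Apart from small RNAs, 3 genes called lower were listed at 0 in the E2F2 library, and no fold is given for them. CR43497 on chromosome X, named CG32700 in the reference table, was listed at 0 in the E2F2 library, against 32.9 and 10.4 FPKM in the GFP libraries (limma adjusted p = 0.0068). It was also listed at 0 in the mip40 and mip120 libraries and had 38.6 and 54.8 FPKM in the mip130 libraries. CR33963, a long noncoding RNA on chromosome X, was listed at 0 in the E2F2 library, against 4.50 and 5.42 FPKM in the GFP libraries (limma adjusted p = 0.016; 0.074 without GFP replicate 2). CG31898 was listed at 0 in the E2F2 library and all 6 mip libraries, against 7.20 and 2.67 FPKM in the GFP libraries (limma adjusted p = 0.017), and without either GFP library it did not reach the filter.

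Among the genes other than the target, the small RNAs and those listed at 0 in the E2F2 library, FK506-bp2 had the largest fall. This gene encodes a small FK506-binding prolyl isomerase and starts at 15177607 on chromosome 2R. It had 163 FPKM in the E2F2 library, against 781 and 755 FPKM in the GFP libraries (-2.23 ± 0.10, limma adjusted p = 8.4e-05). The 6 mip libraries lay between 619 and 904 FPKM, and the difference of E2F2 RNAi from their mean was -2.24 (limma adjusted p = 3.1e-05). The genes beside it did not pass the test. Tab2 had 52.9 FPKM in the E2F2 library, against 50.1 and 42.6 FPKM in the GFP libraries (limma adjusted p = 0.27), and mip40 was not lower either, as given above.

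Further genes fell by less than FK506-bp2. Hexim, the inhibitor of the elongation factor P-TEFb, had 7.97 FPKM in the E2F2 library, against 20.7 and 19.9 FPKM in the GFP libraries (-1.25 ± 0.10, limma adjusted p = 0.00097). Its level was lower still in the mip120 and mip130 libraries (1.24 to 2.52 FPKM), while the mip40 libraries had 16.3 and 16.4 FPKM. CG43110 had 7.50 FPKM in the E2F2 library, against 19.7 and 22.4 FPKM in the GFP libraries (-1.37 ± 0.12, limma adjusted p = 0.0017), and CG42494 had 0.355 FPKM in the E2F2 library, against 3.25 and 3.13 FPKM in the GFP libraries (-1.63 ± 0.18, limma adjusted p = 0.0039). The call of Hexim held under each alternative run. That of CG43110 ended when only transcripts already annotated were summed. Caps, a factor of dense-core vesicle release on chromosome 4, had 10.0 FPKM in the E2F2 library, against 27.6 and 23.9 FPKM in the GFP libraries (-1.28 ± 0.16, limma adjusted p = 0.0065). One new isoform carried that difference, with 7.66 FPKM in the E2F2 library, against 23.04 and 20.0 FPKM in the GFP libraries, and with annotated transcripts only the sign turned (1.13, limma adjusted p = 0.30). Of the 213 genes called lower, 12 were small RNAs, 11 of which were listed at 0 in the E2F2 library. Over the 182 small RNAs tested, 122 were listed at 0 in the E2F2 library, against 78 and 85 in the GFP libraries, in RNA selected with oligo-dT. Without small RNAs, 871 genes were called higher and 261 lower.

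**Figure D3:**
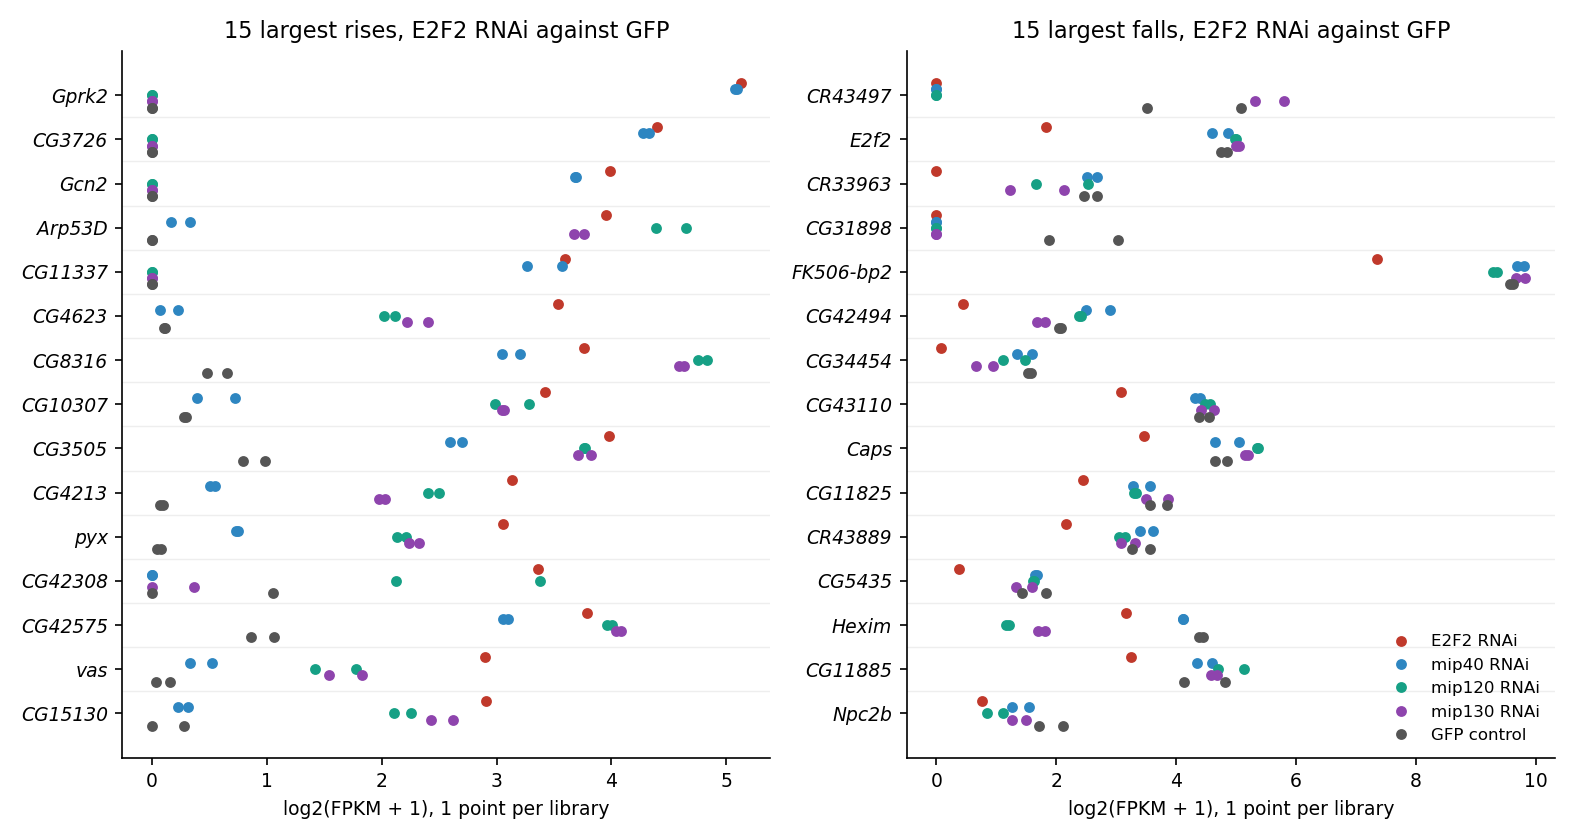
log2(FPKM + 1) in each of the 9 libraries, 1 point per library coloured by dsRNA target, for the 15 genes with the largest rise (left) and the 15 with the largest fall (right) in E2F2 RNAi against GFP control. Red E2F2 points lie right of the grey control points on the left panel and left of them on the right panel, and the mip points show that Gprk2, CG3726, Gcn2 and CG11337 were present in mip40 RNAi while Arp53D was present in mip120 and mip130 RNAi.

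Of 67 mitosis genes tested, 27 were called higher in E2F2 RNAi cells and 0 lower, against 9.28% and 2.72% of all genes tested, while 40 did not pass the test and 6 lay below both GFP libraries. The median difference over the 67 genes was 0.33, against 0.08 for all genes tested. thr, a partner protein of separase, had 19.5 FPKM in the E2F2 library, against 9.38 and 8.71 FPKM in the GFP libraries (1.03 ± 0.08, limma adjusted p = 0.0011). Sse, the protease separase itself, had 18.1 FPKM in the E2F2 library, against 9.13 and 11.0 FPKM in the GFP libraries (0.79 ± 0.11, limma adjusted p = 0.0084). ial, the kinase Aurora B, had 95.7 FPKM in the E2F2 library, against 61.4 and 57.6 FPKM in the GFP libraries (0.68 ± 0.10, limma adjusted p = 0.012; 0.051 without GFP replicate 2). The count of 27 depended on the settings, with 18 called higher without GFP replicate 1, 11 without GFP replicate 2, 20 under median-ratio scaling, 19 under quantile normalization and 12 under annotated-sum scaling. No mitosis gene was called lower under any of these, nor was any lower at an unadjusted limma p of 0.05, where 42 were higher. Of all 7835 genes tested, 2397 passed that unadjusted threshold, in either direction.

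The list of the kinetochore and the spindle checkpoint, which attach chromosomes to the spindle and monitor that attachment, overlaps with the mitosis list. Of 20 such genes tested, 15 are in the mitosis list too, as are 6 of the 9 that were called higher. None was called lower, the median was 0.44, and 18 lay above both GFP libraries and 0 below both (51.3% and 28.4% of all genes tested did so). The test called 5 of them higher without GFP replicate 2. Nnf1b, a kinetochore subunit, had 32.9 FPKM in the E2F2 library, against 11.5 and 13.4 FPKM in the GFP libraries (1.34 ± 0.18, limma adjusted p = 0.0076). Ndc80, of the microtubule-binding complex of that name, had 12.9 FPKM in the E2F2 library, against 5.83 and 4.90 FPKM in the GFP libraries (1.13 ± 0.16, limma adjusted p = 0.0091). BubR1, a checkpoint kinase, had 47.0 FPKM in the E2F2 library, against 30.0 and 29.5 FPKM in the GFP libraries (0.64 ± 0.08, limma adjusted p = 0.0060). In all of these the E2F2 value lay clear of both controls, and their calls held with any one library left out.

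Genes called in DNA replication and in DNA repair were higher. Of 50 replication genes tested, 14 were called higher and 0 lower (median 0.26), against 9.28% and 2.72% of all genes tested, with 7 called higher without GFP replicate 1, 6 without GFP replicate 2 and 7 under annotated-sum scaling. Fen1, the flap endonuclease that processes Okazaki fragments, had 111 FPKM in the E2F2 library, against 59.2 and 54.6 FPKM in the GFP libraries (0.95 ± 0.11, limma adjusted p = 0.0047). CG15220, named RPA3 in the reference table and a subunit of the single-strand binding protein RPA, had 103 FPKM in the E2F2 library, against 58.6 and 57.5 FPKM in the GFP libraries (0.82 ± 0.08, limma adjusted p = 0.0027). All 26 genes of DNA damage and double-strand break repair lay above both GFP libraries as deposited, as did 51.3% of all genes tested. Of the 26, 12 were called higher and 0 lower (median 0.38). That count was 6 without GFP replicate 2, 6 under annotated-sum scaling, 8 under the other scalings and 7 without a mip120 library. p53, the damage-responsive transcription factor, had 13.4 FPKM in the E2F2 library, against 6.54 and 5.89 FPKM in the GFP libraries (0.99 ± 0.12, limma adjusted p = 0.0051). rad50, of the complex that senses broken DNA ends, had 93.3 FPKM in the E2F2 library, against 51.1 and 51.8 FPKM in the GFP libraries (0.85 ± 0.10, limma adjusted p = 0.0044), and its partner mre11 had 72.9 FPKM in the E2F2 library, against 45.5 and 46.7 FPKM in the GFP libraries (0.65 ± 0.08, limma adjusted p = 0.0068). Irbp, of the Ku complex of end joining, had 40.8 FPKM in the E2F2 library, against 23.6 and 21.0 FPKM in the GFP libraries (0.85 ± 0.09, limma adjusted p = 0.0035). These genes kept their calls with any one library left out.

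In the list of E2F and G1 to S regulators, 2 of 17 tested were called higher and 0 lower, and the median was -0.02. That share was near the background of 9.28% and 2.72%. The activator E2f had 156 FPKM in the E2F2 library, against 166 and 187 FPKM in the GFP libraries (limma adjusted p = 0.28). CycE, the cyclin that drives entry into S phase, had 31.1 FPKM in the E2F2 library, against 32.1 and 31.7 FPKM in the GFP libraries (limma adjusted p = 0.80). The Cdc25 phosphatase stg, known for its role at entry into mitosis, had 78.8 FPKM in the E2F2 library, against 73.3 and 79.1 FPKM in the GFP libraries (limma adjusted p = 0.79). The values of CycE and stg lay within or close to the control pair. Both calls, cdc2c and CycC, ended under each scaling and without GFP replicate 2 (limma adjusted p = 0.11 for each).

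Some genes of the piRNA and germ cell lists were called higher, to be read against 9.28% of all genes tested called higher and 2.72% lower. Of 29 genes of the piRNA pathway, which silences transposons in gonads, 8 were called higher and 0 lower (median 0.26; 3 were lower at an unadjusted p of 0.05), although annotated-sum scaling gave 7 higher and 3 lower and quantile normalization 7 higher and 1 lower. shu, a cochaperone for loading piRNAs, had 66.2 FPKM in the E2F2 library, against 27.4 and 27.0 FPKM in the GFP libraries (1.25 ± 0.06, limma adjusted p = 0.00011). spn-E, a helicase of the germline nuage, had 20.0 FPKM in the E2F2 library, against 8.54 and 8.12 FPKM in the GFP libraries (1.17 ± 0.08, limma adjusted p = 0.00047). CG2183, named Gasz in the reference table and a mitochondrial scaffold for piRNA production, had 19.3 FPKM in the E2F2 library, against 8.79 and 9.17 FPKM in the GFP libraries (1.03 ± 0.13, limma adjusted p = 0.0057). The Argonaute piwi stayed low, with 0.815 FPKM in the E2F2 library, against 0.585 and 0.612 FPKM in the GFP libraries (limma adjusted p = 0.29). Among 21 tested germ cell genes of 27 listed, vas and nos were called higher and none lower (median 0.11). That share was near the background, and the median of all genes tested was 0.08. nos, the translational repressor nanos, had 2.64 FPKM in the E2F2 library, against 0.334 and 0.357 FPKM in the GFP libraries (1.43 ± 0.13, limma adjusted p = 0.0020). bam, the differentiation factor bag of marbles, had 1.33 FPKM in the E2F2 library, against 1.43 FPKM in each GFP library (limma adjusted p = 0.79).

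Of the 38 testis genes, 26 did not reach 1 FPKM in any library. Of the 12 tested, 4 were called higher and 0 lower, against 9.28% and 2.72% of all genes tested. Arp53D is described above, and the calls of topi, gdl and mia (0.59, 0.52 and 0.47 log2) each ended without GFP replicate 2. Those of topi and mia also ended without any one of the mip libraries and under each scaling, and that of topi without GFP replicate 1. That of gdl also ended without GFP replicate 1, without either mip130 library and under annotated-sum scaling. Among 30 tested genes of meiotic synapsis and recombination, 10 were called higher and 0 lower (median 0.24), with 4 called higher without GFP replicate 2, 6 without GFP replicate 1, 6 without a mip120 library and 6 under annotated-sum scaling or quantile normalization. sub, a kinesin-like protein of the meiotic spindle, had 27.9 FPKM in the E2F2 library, against 14.2 and 13.3 FPKM in the GFP libraries (0.97 ± 0.08, limma adjusted p = 0.0011). c(3)G, the transverse filament of the synaptonemal complex, had 10.6 FPKM in the E2F2 library, against 7.54 and 8.01 FPKM in the GFP libraries (limma adjusted p = 0.070), so that corolla, given above, was called and this partner was not.

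**Figure D4:**
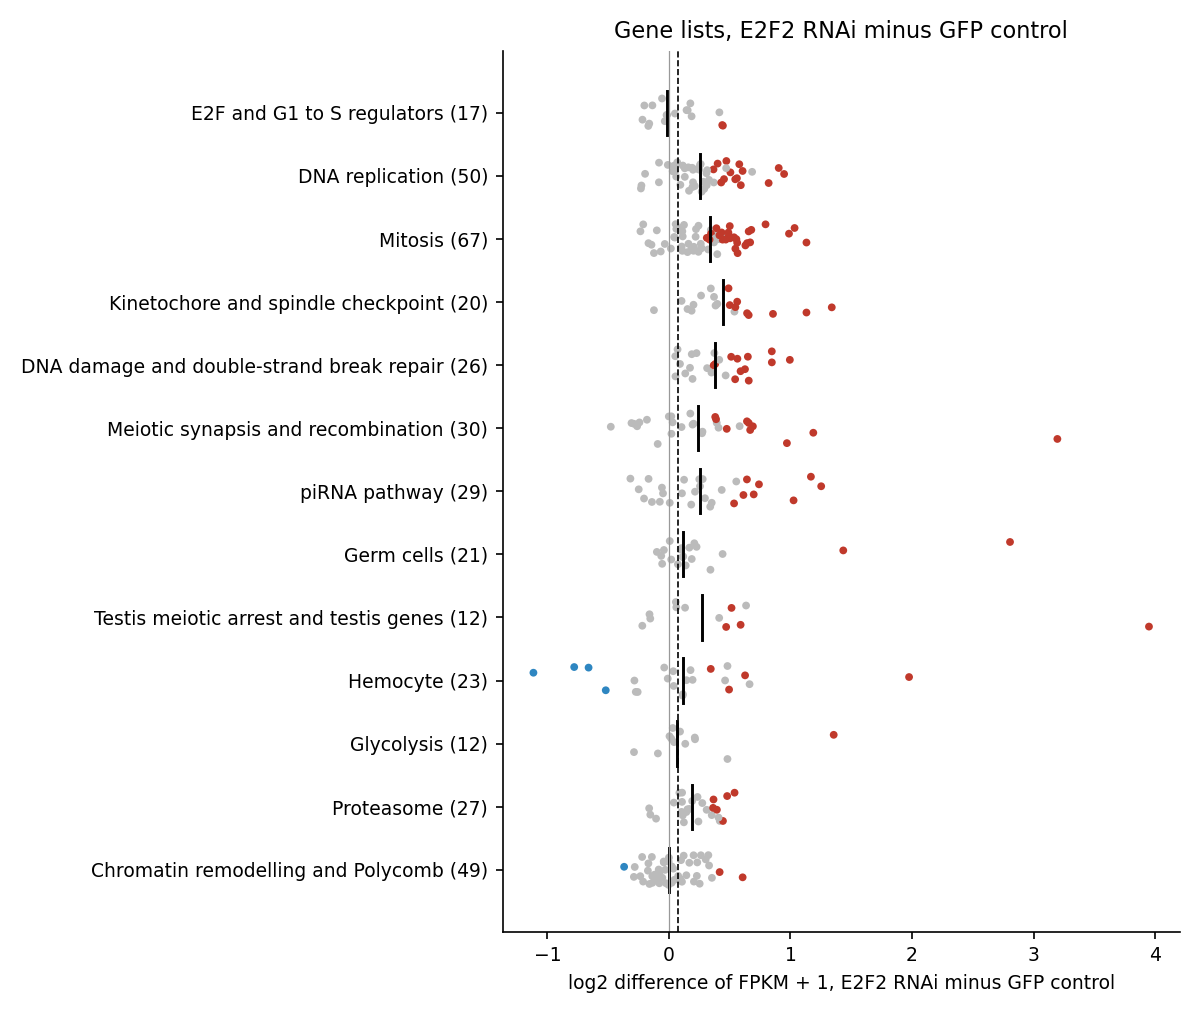
log2 difference of FPKM + 1, E2F2 RNAi minus GFP control, for each tested member of 13 gene lists (number tested in brackets). Red and blue points are members called higher and lower (limma adjusted p at most 0.05), grey points were not called, black bars are list medians and the dashed line is the median of all genes tested, 0.08; mitosis, kinetochore and repair lists sit to the right of that line and the G1 to S list to its left.

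Hemocyte genes were called in both directions, to be read against 9.28% of all genes tested called higher and 2.72% lower. Of 23 tested, 4 were higher and 4 lower, with 2 and 2 without GFP replicate 2, 2 and 3 without GFP replicate 1 or a mip120 library, and 2 and 5 under annotated-sum scaling. Pxn, the matrix enzyme peroxidasin, had 42.5 FPKM in the E2F2 library, against 10.6 and 9.58 FPKM in the GFP libraries (1.98 ± 0.09, limma adjusted p = 8.0e-05). LanB1, a laminin chain, had 91.8 FPKM in the E2F2 library, against 57.0 and 61.2 FPKM in the GFP libraries (0.63 ± 0.07, limma adjusted p = 0.0047). The collagen IV chains went the other way. vkg had 5.53 FPKM in the E2F2 library, against 9.45 and 11.0 FPKM in the GFP libraries (-0.78 ± 0.13, limma adjusted p = 0.014), and Cg25C had 12.3 FPKM in the E2F2 library, against 18.5 and 21.7 FPKM in the GFP libraries (-0.66 ± 0.12, limma adjusted p = 0.017). Both of those calls ended without GFP replicate 2 (limma adjusted p = 0.053 for each), while those of Pxn and LanB1 held. Pvf3, a growth factor of the PDGF and VEGF family, had 10.9 FPKM in the E2F2 library, against 23.4 and 26.39 FPKM in the GFP libraries (-1.11 ± 0.14, limma adjusted p = 0.0064), but with annotated transcripts only its difference was 0.35 (limma adjusted p = 0.69).

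The remaining lists are to be read against the 9.28% of all genes called higher and the 2.72% called lower. In glycolysis, Pfk, the phosphofructokinase, was the only one of 12 genes called, with 13.2 FPKM in the E2F2 library, against 5.12 and 4.05 FPKM in the GFP libraries (1.36 ± 0.12, limma adjusted p = 0.0017). Of 49 chromatin remodelling and Polycomb genes 2 were called higher and 1 lower (median 0.00), and of 19 insulator and architectural genes 1 was. That gene, BEAF-32, a boundary-element factor, had 75.2 FPKM in the E2F2 library, against 46.4 and 46.1 FPKM in the GFP libraries (0.69 ± 0.09, limma adjusted p = 0.0070). None of 19 cell death genes, 15 heat shock genes or 7 muscle genes passed the limma test in either direction. At an unadjusted limma p of at most 0.05 there were 3, 5 and 1, against 2397 of all 7835 genes tested. Shares in the ribosome lists were near the background. Of 84 cytosolic ribosomal protein genes 6 were called higher and 1 lower, and without GFP replicate 2 these were 0 and 1. Of 73 mitochondrial ribosome genes 8 were called higher and 3 lower, which became 1 and 0 without GFP replicate 2 and 3 and 5 under annotated-sum scaling. The proteasome had 6 of 27 genes called higher as deposited, and 0 under annotated-sum, median-ratio or quantile scaling, without GFP replicate 2, or without a mip120 library.

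E2F2 RNAi was then compared with the mean of the mip40, mip120 and mip130 groups. No GFP level enters this contrast, although the GFP libraries share in its estimate of spread. It asks where depletion of E2F2 differed from the average over the Mip subunits, so a called gene need not differ from each group. Gprk2, called higher by 3.43, had 33.9 FPKM in the E2F2 library and 33.1 and 32.8 FPKM in the mip40 libraries. It was listed at 0 in the mip120 and mip130 libraries. Of 7835 genes, 1527 (19.5%) were higher in E2F2 RNAi and 762 (9.73%) lower. That balance also moved with the scaling, to 985 higher and 1078 lower under median-ratio scaling and 767 higher and 1166 lower under annotated-sum scaling. In the mitosis list, 37 of 67 genes were higher in E2F2 RNAi and 0 lower (median 0.38, against 0.09 for all genes tested). Between 31 and 35 were higher and 2 lower under the 3 other scalings.

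Several mitotic motors showed this, chosen here after their values were seen. Klp67A, a kinesin of the mitotic spindle, had 39.1 FPKM in the E2F2 library, against 20.5 and 21.3 FPKM in the mip40 libraries and 11.7 to 13.1 FPKM in the mip120 and mip130 libraries (1.35, limma adjusted p = 0.00017). pav, the cytokinesis kinesin pavarotti, had 62.9 FPKM in the E2F2 library, against 31.1 and 32.7 FPKM in the mip40 libraries and 20.4 to 23.2 FPKM in the mip120 and mip130 libraries (1.33, limma adjusted p = 0.00017). ncd, a motor that focuses spindle poles, had 161 FPKM in the E2F2 library, against 55.8 to 93.5 FPKM over the mip libraries (1.24, limma adjusted p = 0.00018). For these motors the GFP libraries lay between E2F2 RNAi and the mip groups. The difference of ncd from GFP was 0.49, and 0.14 with annotated transcripts only. Its call against GFP ended in that setting, without either GFP library and under annotated-sum scaling. Klp67A had 39.1 FPKM in E2F2 RNAi, against 27.5 and 24.8 FPKM in the GFP libraries (0.57 ± 0.09, limma adjusted p = 0.014), and pav had 62.9 FPKM in E2F2 RNAi, against 48.8 and 44.0 FPKM in the GFP libraries (0.43 ± 0.09, limma adjusted p = 0.030). Both of these calls against GFP ended without GFP replicate 2 (limma adjusted p = 0.051 and 0.092) and under annotated-sum scaling, and that of pav also without a mip120 library (limma adjusted p = 0.059), while their calls against the mip groups held.

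Other genes were near control level in E2F2 RNAi and far higher in all mip libraries. Sas, which encodes the sialic acid synthase, had 1.37 FPKM in the E2F2 library, against 31.5 to 55.4 FPKM in the mip libraries (-4.30, limma adjusted p = 2.5e-05) and 1.09 and 0.462 FPKM in the GFP libraries. swa, the RNA-localization factor swallow, had 0.158 FPKM in the E2F2 library, against 7.98 to 9.94 FPKM in the mip libraries (-3.11, limma adjusted p = 2.5e-05) and 0.0974 and 0.0586 FPKM in the GFP libraries. piwi had 0.815 FPKM in the E2F2 library, against 6.66 to 19.2 FPKM in the mip libraries (-2.81, limma adjusted p = 1.8e-05). For each of these the single E2F2 value lay well below the lowest mip library. bam had 1.33 FPKM in the E2F2 library, against 6.30 to 10.1 FPKM in the mip libraries (-1.88, limma adjusted p = 0.00012). nos, which had risen over GFP, still had 2.64 FPKM in the E2F2 library, against 9.22 to 23.6 FPKM in the mip libraries (-2.003, limma adjusted p = 0.00015). The meiotic gene hdm had 0.395 FPKM in the E2F2 library, against 5.75 to 14.4 FPKM in the mip libraries (-2.68, limma adjusted p = 5.3e-05).

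The germline lists held genes on both sides, as did all genes tested, of which 19.5% were higher and 9.73% lower than in the mip groups. In the germ cell list 3 of 21 genes were higher in E2F2 RNAi than in the mip groups and 5 lower, in the piRNA list 9 were higher and 5 lower, and in the meiotic list 3 were higher and 8 lower. In the testis list 2 of 12 tested genes were higher and 6 lower, with a median of -0.64, against 0.09 for all genes tested. vas was higher, with 6.48 FPKM in the E2F2 library, against 0.260 to 2.55 FPKM in the mip libraries (1.67, limma adjusted p = 0.0026). shu and spn-E, which rose over GFP, did not differ past the test from the mip mean, with differences of -0.05 (limma adjusted p = 0.51) and -0.11 (limma adjusted p = 0.26). Glycolysis went one way, with 7 of 12 genes lower in E2F2 RNAi than in the mip groups and 0 higher, and 8 lower under each of the 3 other scalings. ImpL3, the lactate dehydrogenase, had 280.5 FPKM in the E2F2 library, against 331 to 848 FPKM in the mip libraries (-0.88, limma adjusted p = 0.0046), and 255 and 272 FPKM in the GFP libraries. Tpi, the triose phosphate isomerase, had 63.1 FPKM in the E2F2 library, against 76.0 to 156 FPKM in the mip libraries (-0.79, limma adjusted p = 0.0012). CG5036 was an example of the opposite order, with 8.52 FPKM in the E2F2 library, against 0.761 to 1.82 FPKM in the mip libraries (2.10, limma adjusted p = 0.00017) and 5.75 and 5.92 FPKM in the GFP libraries.

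**Figure D5:**
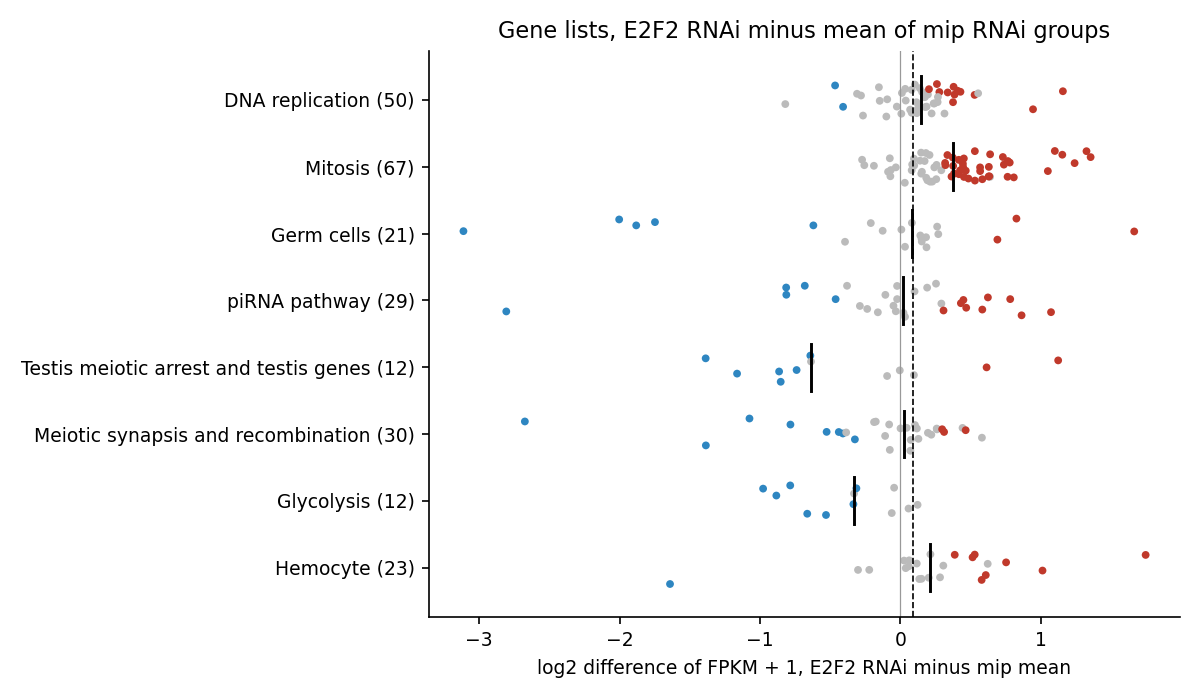
log2 difference of FPKM + 1, E2F2 RNAi minus the mean of the mip40, mip120 and mip130 groups, for each tested member of 8 gene lists. Red and blue points are members higher and lower in E2F2 RNAi (limma adjusted p at most 0.05), black bars are list medians and the dashed line is the median of all genes tested, 0.09; 37 of 67 mitosis genes are red, and 7 of 12 glycolysis genes are blue.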

How the data were processed

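Of the series' 19 samples, the 9 RNA libraries were analysed, and the chromatin and DNA samples were not used here. The authors deposited FPKM per transcript, made with Bowtie 1.1.1, TopHat2 2.0.12, Cufflinks and Cuffnorm, per the submitters' processing notes. The build, the annotation and the strand setting are not stated in the sources. The deposited group means (4 columns) were left aside. FPKM were summed per gene over annotated transcripts, new isoforms and other overlaps (classes "=", "j" and "o"; 15021 genes). Depth is unknown, and no test of counts could be run.

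Genes with at least 1 FPKM in at least 2 of 9 libraries (7835) were tested with limma 3.58.1 (R 4.3.3) after a log2(FPKM + 1) transform. The model held 5 groups and an intensity trend, with 4 residual and 2.77 prior degrees of freedom, and p-values were adjusted by Benjamini-Hochberg over all genes at 0.05. A gene near 0 in controls could enter through other libraries where it was high, but not through the single E2F2 library alone, so counts over tested members describe those members only. Log2 differences understate changes of low genes.

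Members and the 33 gene lists, which overlap in part, were chosen with earlier results of these data known, and 1 symbol was removed from the meiotic list because the table's gene of that name is another gene. Genes were named by rule: dREAM subunits, neighbours of E2f2, the 15 largest called rises and falls outside the control range, up to 5 called members per list, up to 10 called genes listed at 0 in GFP, and the 8 largest differences from the mip groups each way, with small RNAs counted but not named. Genes named beyond it were chosen after their values were seen: CG30285, CG3011, Lasp, Eip63E, mbl, Nipped-A, Snap25, Sod2, Tab2, E2f, CycE, stg, piwi, bam, hdm, c(3)G, ImpL3, Tpi and the mitotic motors. The head-to-head partners of the 15 largest rises that were tested are all named, with values given only for CG30285, CG3011 and Sod2. Scaling alternatives were quantile normalization, median ratios and, chosen after seeing the data, division by the annotated sum, as were the settings without genes listed at 0 and without small RNAs. Of the table's symbols, 11618 were current and 3141 older names in the reference table.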

Additional observations from a re-analysis of the deposited data

Results flagged for a closer look

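Transcripts outside annotated genes, 604 of no annotated gene and 136 antisense to one, entered no comparison. Of these, 7 had at least 5 FPKM in the E2F2 library and stood at least 2 log2 units above the higher GFP library. On the mitochondrial chromosome (M) 3 unannotated transcripts, starting at 14905, 201 and 13, had 2384, 827 and 478 FPKM in the E2F2 library and were listed at 0 in both GFP libraries and all 6 mip libraries. An exact 0 can be a failed estimate, and whether it is so here was not tested. A transcript antisense to Cht3 had 213 FPKM in the E2F2 library, against 8.40 and 6.43 FPKM in the GFP libraries, and ranged from 19.5 to 106 FPKM over the mip libraries. An unannotated transcript on X starting at 9056161 had 21.4 FPKM in the E2F2 library, against 3.20 and 3.74 FPKM in the GFP libraries. Antisense to CG31373, 2 transcripts had 9.67 and 7.59 FPKM in the E2F2 library, against 1.04 and 0 FPKM for the first and 0 in both GFP libraries for the second; both were listed at 0 in the mip40 libraries.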

How the results depend on the processing

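Against GFP, the counts of genes called higher (727) and lower (213) became 321 and 459 under annotated-sum scaling and 325 and 86 with the replicate number as a block, while quantile normalization gave 421 higher. With 1 library left out, higher calls ranged from 262 to 751 and lower calls from 71 to 200. Genes past the rule with no test (185 above and 71 below the control range) became 281 and 146 with a pseudocount of 0.1. They became 111 and 42 with a mean FPKM of at least 5. Those below became 29 without genes listed at 0 and 40 without small RNAs. Against the mip groups, genes higher (1527) became 767 under annotated-sum scaling, 985 under median-ratio scaling and 940 with the block, and genes lower (762) became 1166 under annotated-sum scaling. The cause of these shifts was not tested. The number of lists with a median above that of all genes, 21, ranged from 17 to 25 over all settings.

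The labels do not state whether replicate numbers pair samples, and correlations of their deviations ran from -0.13 to 0.02 between groups. Whether libraries of the same number were processed together was not tested. The block result is given here only. Of 115 named genes called against GFP, 52 stayed called under every setting in which they were tested. The sign turned for Caps (1.13) and Pvf3 (0.35) with annotated transcripts only. Without GFP replicate 2, 57 of 114 named calls were lost. Depth is unknown, and a single E2F2 library limits every value.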
